A study of Mus musculus with 9 samples.

Results

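The nuclear genes for the subunits of the oxidative phosphorylation complexes were followed across 9 RNA-seq libraries of sorted mouse hippocampal neurons. They were chosen by symbol alone: protein-coding genes beginning with Ndufa, Ndufb, Ndufc, Ndufs, Ndufv, Uqcr, Cox4, Cox5, Cox6, Cox7, Cox8 or Atp5, plus Sdha, Sdhb, Sdhc, Sdhd and Cyc1. Of 108 annotated genes with a matching symbol, 13 were not protein coding and 8 were Ndufaf assembly factors, and both kinds were left out. This left 87 genes, of which 86 were among the 51912 genes of the deposited tables. A mean of at least 1 CPM (read counts scaled to a common library total) was reached by 78 of the 86, and by 14787 of the 51912. By complex, the 86 genes comprised 38 of complex I, 4 of complex II, 9 of complex III, 18 of complex IV and 17 of complex V, and 36, 4, 9, 12 and 17 of them reached 1 CPM.

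Oxidative phosphorylation makes most of the ATP of a neuron. Complexes I and II pass electrons from NADH and succinate to ubiquinone, complex III passes them to cytochrome c, and complex IV passes them to oxygen. Complexes I, III and IV pump protons across the inner mitochondrial membrane, and complex V, the ATP synthase, uses the return flow to make ATP. All of these except complex II combine subunits encoded in the nucleus with a few encoded in mitochondrial DNA, so that transcripts of both genomes feed one machine. In neurons the pathway is known for meeting the cost of ion pumping and synaptic transmission.

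The mice were male C57BL/6 animals with the label CamkⅡα-cre, in which Cre recombinase is driven by the promoter of a kinase of forebrain excitatory neurons. They had received rAAV5-DIO-mCherry, a viral vector whose red fluorescent protein is switched on by Cre, and fluorescent cells negative for the dead-cell stain DAPI were sorted 3 weeks later. The study used doses of 2.88e+08, 2.88e+09 and 2.88e+10 vector genomes with the lowest as control, in 3 groups of 3 samples described as biological replicates, so that all groups carried both Cre and the vector. No label ties a library (S1001 to S1009) to a dose, and the column headers carry only unexplained letters: H for S1001 to S1003, M for S1004 to S1006 and L for S1007 to S1009. The libraries were therefore treated as a single set, values are given for each of them, and no test between groups was made.

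Each library held 12136830 to 19151596 gene counts. The sorted label was checked against marker genes. All 12 markers of excitatory neurons were detected, with a summed level of 7024, 6655, 6775, 4790, 4673, 4625, 9141, 7434 and 9497 CPM in S1001 to S1009. Microglial markers, which a pure neuronal sort would lack, were also present: 13 of 13 passed 1 CPM, and their sum was 19890, 18440, 19170, 8763, 6882, 7364, 84.98, 178 and 31.5 CPM in the same order. Markers of oligodendrocytes summed to 639.8, 630.3, 652, 118, 159.8, 95.9, 31.96, 60.9 and 45.6 CPM, and those of plasma and B cells to 3534, 3676, 3642, 338, 197, 352, 389, 254 and 338 CPM. All 3 lists were highest in S1001, S1002 and S1003. Nearly all of the plasma and B cell sum in S1004 to S1009 was Xbp1, at 191 to 388 CPM. Xbp1 was no higher in S1001 to S1003, at 299 to 321 CPM. Jchain had 1046 to 1131 CPM in S1001 to S1003 and at most 1.17 CPM in the other libraries, and Igkc 2133 to 2180 and at most 0.85 CPM. Inhibitory neuron markers summed to 1321 to 3777 CPM, endothelial markers to at most 3.30 CPM and erythrocyte markers to at most 1.10 CPM. Cck was the largest part of the inhibitory sum in every library, at 999.5 to 2326 CPM. Gad1 ranged from 36.4 CPM in S1002 to 574 CPM in S1008. The libraries S1001, S1002 and S1003 also resembled each other more than any other pair, with a chi-square per degree of freedom over all genes of 2.67 to 5.14, still beyond sampling noise. In such bulk samples, fewer cells of a type and less RNA per cell cannot be told apart.

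The promoters of 4 genes are printed first because the genes behind them were highest in different libraries. Cox6a1 and Uqcr11 were highest in S1004 and S1009, while Atp5b and Sdha had S1007, S1008 and S1009 as their 3 highest libraries. The windows run from 250 bases before to 50 bases after the gene start in RefSeq on GRCm38.p6, and so cover the proximal promoter and the start of the first exon. Capitals mark matches, on either strand, to 3 short motifs: the NRF1 core CGCANGCG, the ETS core CCGGAAG and the CCAAT box. The Cox6a1 window lies at chr5:115348909-115349208, minus strand, that of Uqcr11 at chr10:80406772-80407071, minus strand, that of Atp5b at chr10:128083057-128083356, plus strand, and that of Sdha at chr13:74350191-74350490, minus strand.
Cox6a1: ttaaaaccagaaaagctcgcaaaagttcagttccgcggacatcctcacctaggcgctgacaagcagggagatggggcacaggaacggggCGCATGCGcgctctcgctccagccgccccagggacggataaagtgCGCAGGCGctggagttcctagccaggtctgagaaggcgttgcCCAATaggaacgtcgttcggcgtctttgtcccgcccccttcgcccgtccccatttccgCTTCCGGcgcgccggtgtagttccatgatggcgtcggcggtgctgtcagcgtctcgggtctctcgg
Uqcr11: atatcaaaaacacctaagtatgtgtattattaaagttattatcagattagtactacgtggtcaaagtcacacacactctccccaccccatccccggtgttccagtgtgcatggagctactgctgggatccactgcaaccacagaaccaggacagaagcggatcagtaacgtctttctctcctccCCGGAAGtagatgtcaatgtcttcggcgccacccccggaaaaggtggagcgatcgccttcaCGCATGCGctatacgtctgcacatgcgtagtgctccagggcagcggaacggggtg
Atp5b: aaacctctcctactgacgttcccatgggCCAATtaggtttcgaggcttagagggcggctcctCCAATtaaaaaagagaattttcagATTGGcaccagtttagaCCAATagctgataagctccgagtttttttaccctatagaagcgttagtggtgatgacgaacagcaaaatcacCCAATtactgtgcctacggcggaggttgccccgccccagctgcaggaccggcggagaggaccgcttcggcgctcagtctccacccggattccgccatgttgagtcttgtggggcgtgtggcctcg
Sdha: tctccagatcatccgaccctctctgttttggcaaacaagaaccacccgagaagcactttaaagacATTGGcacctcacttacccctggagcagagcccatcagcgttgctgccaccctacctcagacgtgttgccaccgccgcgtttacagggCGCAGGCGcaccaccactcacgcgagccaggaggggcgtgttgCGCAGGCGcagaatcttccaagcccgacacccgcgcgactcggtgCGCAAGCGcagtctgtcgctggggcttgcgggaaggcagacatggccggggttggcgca

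The Cox6a1 window held 2 NRF1 cores, 1 ETS core and 1 CCAAT box. That of Uqcr11 held 1 NRF1 core and 1 ETS core. The Sdha window held 3 NRF1 cores and 1 CCAAT box, and that of Atp5b held 5 CCAAT boxes and neither of the other letters. The NRF1 letters thus occurred in both of these pairs. NRF1 is a transcription factor known for driving nuclear genes of respiration, and GABP, an ETS factor also called NRF2, is its usual companion. Promoter windows were found for 69 of the 86 genes, 64 of which reached 1 CPM. The NRF1 core was present in 25 of these 64 (39.1%) and in 9.27% of 26742 genes with a window. The ETS core was present in 23.4% of the 64 and 10.0% of all genes, and AAGATGGC, the core of a YY1 site, in 15.6% and 3.21%. The CCAAT box was about equally common, at 42.2% and 41.0%. These are letter matches, not shown binding sites, and base composition was not matched between the genes compared.

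Levels of different genes were compared per length, on the FPKM values that the authors deposited, given here as the mean and the lowest to highest of the 9 libraries. Cox6a1, which codes for the ubiquitous form of a small complex IV subunit (ENSMUSG00000041697, chromosome 5, 115345642 to 115348981, build mm10), had the highest mean of the members, at 849 FPKM (563 to 1254). Cox8a followed at 796 FPKM (613 to 1067), then Ndufb9 of complex I at 650.5 FPKM (438 to 880.5) and Cox6b1 at 552 FPKM (415 to 783). The ranges of these 4 genes overlapped, and Cox8a stood above Cox6a1 in S1001, S1002, S1003 and S1007. In complex III the most abundant were Uqcr11 (ENSMUSG00000020163, chromosome 10, 80402997 to 80406830) at 471 FPKM (259 to 725), Uqcr10 at 370.0 FPKM (222 to 539.8) and cytochrome c1, Cyc1, at 323 FPKM (216 to 408). In complex V the catalytic subunits led, Atp5b (ENSMUSG00000025393, chromosome 10, 128083273 to 128090391) at 400.5 FPKM (338 to 480.0) and Atp5a1 at 299 FPKM (230.1 to 374), followed by the central stalk gene Atp5c1 at 215 FPKM (192 to 247). The ranges of Atp5b and Atp5c1 did not overlap, while that of Atp5a1 overlapped both.

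**Figure D1:**
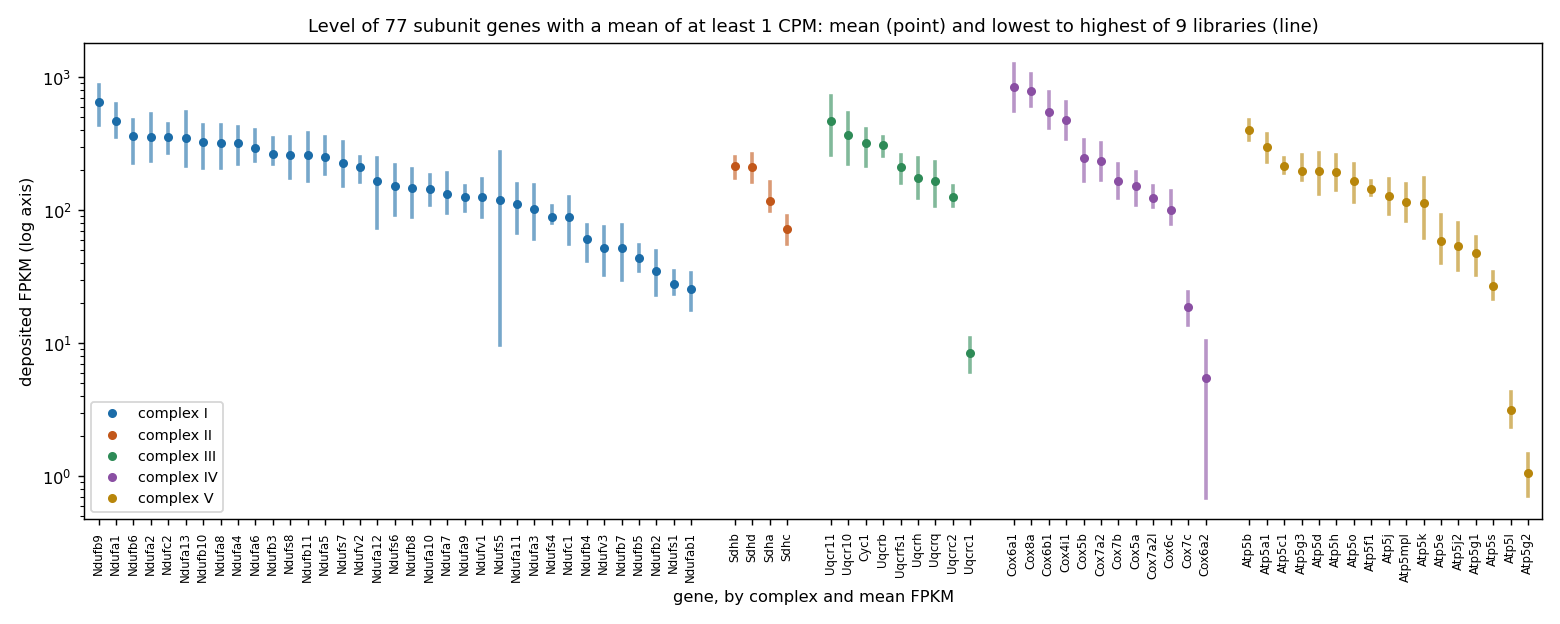
Deposited FPKM (vertical, log axis) of 77 members with a mean of at least 1 CPM, ordered within each complex by mean; points are means and lines run from the lowest to the highest of 9 libraries. Most members lie within a band of levels, with Uqcrc1, Cox7c, Cox6a2, Atp5l and Atp5g2 far below it, and the line of Ndufs5 is the longest in complex I.

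Members of one complex were not measured at one level, although their proteins are assembled in fixed proportion. Within complex I, Ndufs1, the largest electron-carrying core subunit, had 28.03 FPKM (23.6 to 35.1), against the 650.5 of Ndufb9. Their mean CPM, not divided by length, were 227 and 424, and the lengths implied by the deposited values were 8.085 and 0.651 kb. Uqcrc1, a core protein of complex III, stood at 8.45 FPKM (6.09 to 11.04), and its partner Uqcrc2 at 127 FPKM (107 to 153). Cox7c had 18.6 FPKM (13.8 to 24.2) and Atp5l, subunit g of the ATP synthase, 3.15 FPKM (2.35 to 4.30). All these levels depend on the length used, such as 6.448 kb for Atp5l. How well those lengths match the transcripts present was not tested. Of the 13 matching genes that are not protein coding, 12 are annotated as processed pseudogenes, among them copies of Atp5l, Atp5k, Uqcrh, Ndufab1 and Atp5c1. The sources used here do not say how reads that match several places were counted, so the levels of genes with such copies are uncertain.

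Families with several isoform genes were each carried by one or a few members. Cox6a1 exceeded its muscle form Cox6a2, which had 5.51 FPKM (0.69 to 10.4). Cox4i1 had 478 FPKM (347 to 652) while Cox4i2, the form known from lung, averaged 0.15 FPKM. Cox6b1 stood over Cox6b2, known from testis, at 0.28 FPKM, and Cox8a over Cox8b and Cox8c. Cox7a2 had 234 FPKM (168 to 319), the related supercomplex factor Cox7a2l 125 FPKM (106 to 153), and the muscle form Cox7a1 1.73 FPKM (0.92 to 3.22). Cox7b had 166 FPKM (124 to 222) and Cox7b2 1.48 FPKM (0.36 to 2.79). The c ring of the ATP synthase, whose protein is identical from its 3 genes once the targeting sequence is removed, was represented mainly by Atp5g3 at 198 FPKM (170.3 to 261), then Atp5g1 at 48.1 FPKM (32.6 to 63.5), and Atp5g2 at 1.06 FPKM (0.71 to 1.46). These ranges of the 3 c ring genes did not overlap.

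In 8 members the level stayed under a mean of 1 CPM. They were Ndufa4l2, Cox4i2, Cox6b2, Cox7a1, Cox7b2, Cox8b, Cox8c and Ndufs3. A library's count of 0 allows up to 0.1579 to 0.2459 CPM, covering counting error only. Cox8c had no count in any library, Cox8b counts in S1003 alone (0.152 CPM), and the highest value among the other isoform genes was 1.74 CPM, of Cox7a1 in S1004. Ndufs3 is the exception among them, since it codes for a core subunit of complex I that every cell with the complex uses (ENSMUSG00000005510, chromosome 2, 90894634 to 90904827). Its levels were 0, 0.077, 0, 0.16, 0.28, 0, 0.34, 0 and 0.12 CPM in S1001 to S1009. The overlapping gene on the opposite strand, Kbtbd4, was listed at 0 in every library. Why both are at or near 0 was not tested. The 87th gene, a second annotated Atp5o identifier that overlaps the first, was not analysed here.

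Changes across libraries were measured on log2(CPM + 1) as the spread, the second highest minus the second lowest library, so that no single library can make a spread alone. The spread reached 2-fold (1 on the log2 scale) in 8 of the 78 members, or 10.3%, against 26.4% of the 14787 genes. It reached 1.5-fold in 53 members (67.9%), against 58.7% of all genes, and its median was 0.70 for the members and 0.66 for all genes. A 2-fold spread was thus counted in a smaller share of the members than of all genes, with no test of the difference. The size of the gap depended on the settings. The 2 shares were 9.21% and 18.3% at a minimum of 10 CPM, and 9.41% and 12.3% with no minimum. With 5 CPM added in place of 1 they were 8.97% and 13.2%, and with 0.5 CPM 11.5% and 30.7%. The count past 2-fold changed when a library was left out and the scaling factors were estimated again on the rest. It was 3 (3.85%) without S1002, without S1003 or without S1004, against 24.5%, 24.7% and 22.9% of all genes. Without S1006 it was 15 (19.2%, all genes 24.1%) and without S1007 14 (17.9%, all genes 22.5%). Without S1009 it was 1 (1.28%, all genes 21.6%). At fixed scaling, leaving out a library cannot raise a spread, so the rises to 15 and 14 came with the new scaling factors. The side on which the 1.5-fold shares differed turned with single libraries: the members' share was 44.9% (35 of 78) without S1004, against 52.0% of all genes, and 48.7% without S1009, against 49.7% of all genes.

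Most members were high, or low, in the same libraries. In S1004, 73 of 78 lay above their own median of the 9 libraries (all genes, 44.7%), and in S1009 it was 74 of 78 (44.6%). S1005 had 55 above (43.8%) and S1006 had 58 (43.3%). S1007 had 24 above (47.6%) and S1008 had 18 (46.8%). The remaining libraries were low: 6 of 78 in S1001 (41.6%), 2 in S1002 (44.7%) and 2 in S1003 (42.7%). With 8 libraries, as with 9, at most 4 can lie above a gene's median. Leaving out a library that lies above it puts the former median library above the new median. The counts of the libraries near the middle of the order changed. S1001 reached 18, 17, 20 and 20 without S1004, S1005, S1006 and S1009. Without the same libraries, S1007 reached 45, 43, 46 and 46, and S1008 reached 37, 32, 33 and 34. S1003 reached 4, 5 and 4 without S1004, S1005 and S1008. The libraries with the fewest members above their median were those with the highest microglial, oligodendrocyte and plasma cell markers, and the part of these cells in the result was not tested. S1009, at 31.5 CPM of microglial markers, and S1004, at 8763 CPM, were both high.

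**Figure D2:**
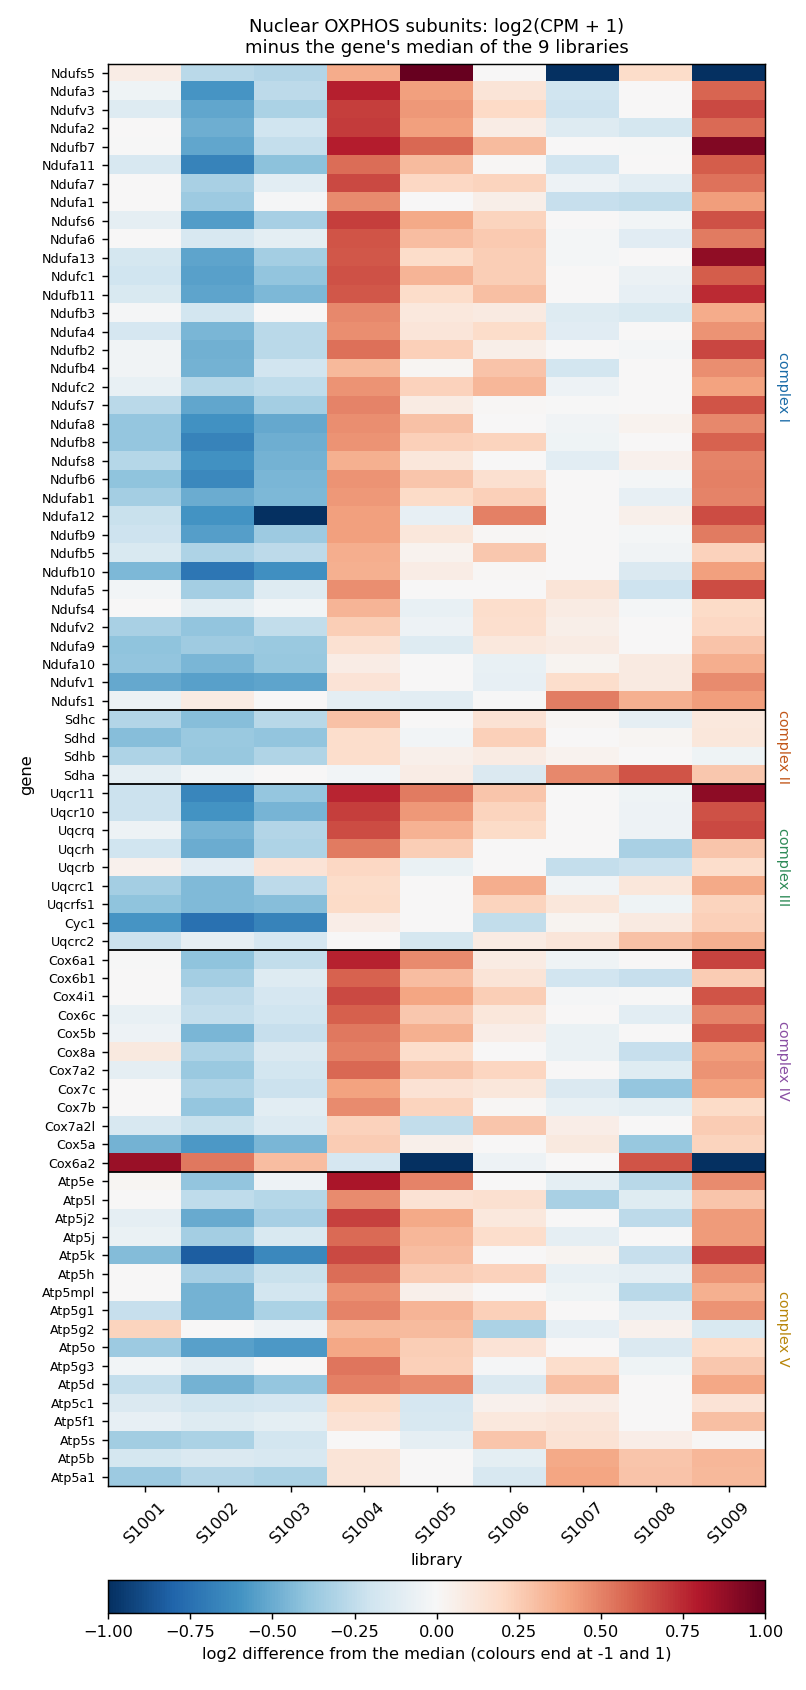
Each row is 1 of 77 members and each column a library; colour gives log2(CPM + 1) minus the gene's median of the 9 libraries, with rows ordered within each complex by the S1004 value minus the S1007 value. Red columns at S1004 and S1009 and blue columns at S1002 and S1003 cross all complexes, and the lowest rows of complexes I, II and V are instead red at S1007 to S1009.

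In complex I, 4 of 36 members passed 2-fold (11.1%, all genes 26.4%) and 28 passed 1.5-fold (77.8%, all genes 58.7%). The median spread was 0.79. Ndufb9, an accessory subunit of the membrane arm and the most abundant of the complex, shows the common course, with 360.0, 284, 324, 554, 449.7, 420.1, 416, 412 and 598 CPM in S1001 to S1009. It was highest in S1009 and S1004 and lowest in S1002, with a spread of 0.77. Ndufb11, an X-linked accessory subunit of the membrane arm, had the same highest and lowest libraries, with 195, 149.5, 158, 333, 245, 266, 216, 204 and 363 CPM (spread 1.07). Ndufb7, another accessory subunit of that arm, had a spread of 1.02, from 135 CPM in S1002 to 368 in S1009. Among the abundant members, Ndufa1 ranged from 149.6 to 268 CPM and Ndufb6 from 149 to 331 CPM. Ndufa4, counted here by its symbol although its protein is known as part of complex IV, ranged from 309 CPM in S1002 to 587 in S1004.

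A pair of accessory genes of complex I departed from this course. Ndufs5, whose product lies on the intermembrane space side (ENSMUSG00000028648, chromosome 4, 123712710 to 123718202), had 109.9, 86.7, 85.2, 136, 226, 105, 42.99, 119 and 8.75 CPM in S1001 to S1009. S1005 was the highest library and S1009 the lowest, and S1007 was the second lowest, so that S1009 was at the bottom for Ndufs5 and at or near the top for most members. Its spread of 1.64 was the largest of the complex and became 0.72 without S1007 or without S1009. Ndufa12, which sits on the peripheral arm (ENSMUSG00000020022, chromosome 10, 94198720 to 94221443), had 186, 143, 98.2, 289.9, 205, 308, 218, 226 and 342 CPM. Here S1009 was highest and S1003 lowest, although S1003 lay near S1001 and S1002 for the other members shown. The Ndufa12 spread of 1.10 became 0.72 without S1002 or without S1003. Ndufs4, an accessory subunit whose loss in mice is a model of Leigh syndrome, was the steadiest, at 131, 123, 128, 166, 124, 148, 138, 129 and 150.0 CPM (spread 0.27).

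The core subunits, which hold the flavin, the iron-sulfur clusters and the ubiquinone site, did not follow the accessory subunits in every library. The score of a group, the mean over its members of log2(CPM + 1) minus the gene's median, was -0.32, -0.39, -0.32, 0.20, -0.025, 0.016, 0.16, 0.13 and 0.44 for the 6 core genes in S1001 to S1009. For the 29 accessory genes it was -0.15, -0.46, -0.32, 0.49, 0.22, 0.16, -0.084, -0.039 and 0.40. The core was below the accessory subunits by 0.17 in S1001, 0.30 in S1004, 0.24 in S1005 and 0.14 in S1006, and above them by 0.24 in S1007 and 0.17 in S1008. Ndufs1 had 198, 218, 206, 192, 191, 206, 294, 264 and 276 CPM, highest in S1007, S1009 and S1008 with the other 6 libraries close together. Ndufs7 and Ndufs8, which carry iron-sulfur clusters, were instead highest in S1009 and S1004. Ndufv1, which binds NADH and the flavin, ranged from 224 CPM in S1002 to 455 in S1009. The split into core and accessory subunits was made after the values had been seen.

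Complex II, which is also an enzyme of the citrate cycle and is wholly nuclear-encoded, varied least. None of its 4 genes reached 2-fold or 1.5-fold, against 26.4% and 58.7% of all genes, and the range of its score was 0.45. Sdha, the flavoprotein that oxidises succinate (ENSMUSG00000021577, chromosome 13, 74322254 to 74350280), had 407, 429, 436, 428, 458, 395, 608, 673 and 527 CPM in S1001 to S1009. S1008, S1007 and S1009 were its 3 highest libraries, and S1001 to S1006 lay between 395 and 458 CPM. Sdhb, the iron-sulfur subunit, had 408, 388, 409.8, 571, 526, 536, 518, 506 and 492 CPM. The membrane anchor Sdhc had 199, 182, 200.5, 298, 244, 269, 246, 228 and 262 CPM. Its partner Sdhd had 200.0, 208, 205, 304, 264, 317, 269, 273 and 292 CPM. For Sdhb, Sdhc and Sdhd, S1001, S1002 and S1003 were the 3 lowest libraries, which was not the case for Sdha. The spreads were 0.58 for Sdha, 0.39 for Sdhb, 0.43 for Sdhc and 0.57 for Sdhd.

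In complex III, 2 of 9 members passed 2-fold (22.2%, all genes 26.4%) and 7 passed 1.5-fold (77.8%, all genes 58.7%). The median spread was 0.70. Both genes past 2-fold were small subunits without a redox group. Uqcr11 had 225, 166, 199.6, 443, 374, 317, 261, 253 and 485 CPM (spread 1.15). Uqcr10 had 169, 129.5, 142, 318, 265, 229.5, 197, 190.3 and 306 CPM (spread 1.10). The 2 genes shared their 2 highest libraries, S1004 and S1009, and their 3 lowest, S1001 to S1003. Uqcrq, another small subunit, had 263, 196, 222, 429, 347, 310.3, 272, 262 and 429 CPM and the same 2 highest libraries. The electron carriers differed in detail: Cyc1 had 286, 257, 272, 453, 432, 364, 439.5, 459 and 509 CPM, with S1009 highest, followed by S1008 and S1004. The Rieske protein Uqcrfs1 ranged from 219 to 349 CPM. Uqcrb, also small, was the steadiest at 281, 253, 300.3, 315, 261, 273, 231, 234 and 308 CPM (spread 0.39), and its lowest libraries were S1007 and S1008.

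In complex IV, 1 of 12 members passed 2-fold (8.33%, all genes 26.4%) and 9 passed 1.5-fold (75.0%, all genes 58.7%). The median spread was 0.69. The nuclear subunits of this complex surround a catalytic centre that is encoded in mitochondrial DNA. Cox6a1 had 519, 394, 438, 888, 721, 550.4, 506, 520.0 and 831 CPM in S1001 to S1009, with S1004, S1009 and S1005 high and S1002 lowest (spread 0.92). Cox4i1, the largest nuclear subunit and a site of ATP binding, had 645, 537, 574, 1019, 847, 765, 639, 642 and 999 CPM (spread 0.80). Cox6b1, which lies where the complex forms dimers, had 371, 293, 339.8, 559, 461, 405, 326, 317 and 442 CPM, and its lowest libraries were S1002, S1008 and S1007. Cox8a ranged from 333 CPM in S1002 to 586 in S1004, and Cox7b, the steadiest of the complex (spread 0.33), from 149.7 to 272 CPM in the same 2 libraries.

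The one complex IV gene past 2-fold was the muscle isoform Cox6a2, with 7.05, 5.38, 4.50, 2.95, 0.76, 3.27, 3.43, 5.85 and 0.49 CPM and a spread of 1.96. S1001 was highest, and S1009, S1005 and S1004, the 3 highest libraries of Cox6a1, were the 3 lowest of Cox6a2. It averaged 53.6 counts a library, so counting error is larger than for its relatives, and its spread became 0.91 with a pseudocount of 5 CPM, 0.79 without S1005 and 0.75 without S1009.

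In complex V, 1 of 17 members passed 2-fold (5.88%, all genes 26.4%) and 9 passed 1.5-fold (52.9%, all genes 58.7%). The median spread was 0.63. The genes of the catalytic head and the membrane gene shown here were highest in different libraries. Atp5b, the catalytic beta subunit, had 1425, 1461, 1446, 1766, 1613, 1509, 2103, 1955 and 2026 CPM. Atp5a1, the alpha subunit beside it, ranged from 718 CPM in S1001 to 1214 in S1007. Both were highest in S1007, then in S1009 and S1008, and lowest in S1001 to S1003. Atp5k, subunit e of the membrane part, had 50.4, 38.2, 43.5, 109, 84.8, 68.5, 69.6, 58.3 and 110.2 CPM (spread 1.30), with S1009 and S1004 highest and S1008 below S1005, S1006 and S1007. The score of the 2 head genes was -0.27, -0.22, -0.24, 0.13, 0, -0.13, 0.39, 0.28 and 0.33 in S1001 to S1009. For the 4 membrane subunits Atp5k, Atp5l, Atp5j2 and Atp5mpl it was -0.13, -0.51, -0.36, 0.57, 0.22, 0.068, -0.084, -0.22 and 0.43, below 0 in S1007 and S1008 where the head was above it.

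The central stalk gene Atp5d had 301, 256, 272, 506, 494, 322, 440.2, 356 and 465 CPM (spread 0.86), highest in S1004 and S1005. Atp5o, the subunit that ties the head to the peripheral stalk and is known for conferring oligomycin sensitivity, had 301, 267, 261, 508, 459, 428, 388, 352 and 446 CPM (spread 0.78). Atp5f1, subunit b of the peripheral stalk, was the steadiest member of the complex at 551, 532, 543, 645, 519.8, 625, 634, 582 and 718 CPM (spread 0.28). Of the c ring genes, Atp5g3 ranged from 370.5 CPM in S1002 to 573 in S1004 and Atp5g1 from 160.0 to 314 CPM in the same libraries. Atp5g2 stayed between 1.16 and 2.37 CPM. Atp5s, counted by its symbol, codes for factor B, a protein bound to the synthase rather than one of its subunits, and ranged from 43.8 to 68.2 CPM.

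**Figure D3:**
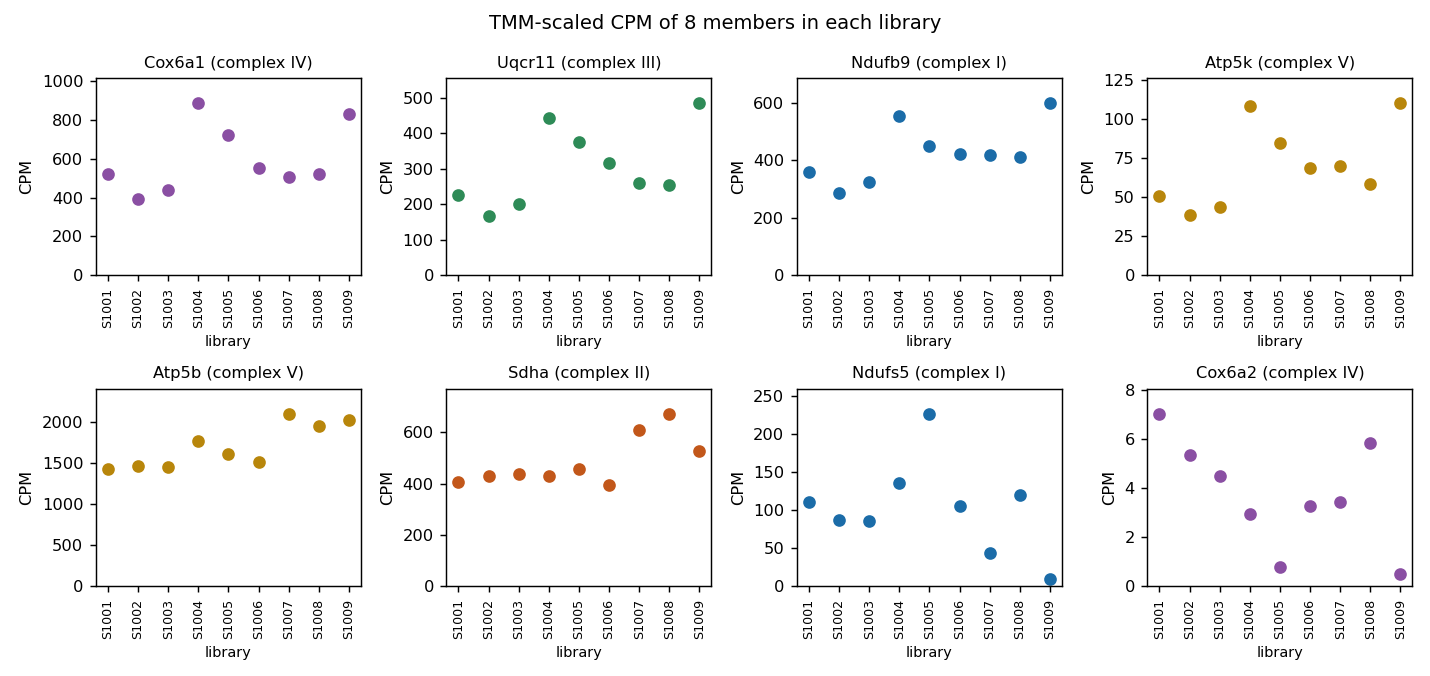
CPM (vertical, from 0) of 8 members in each of the 9 libraries, 1 point a library. Cox6a1, Uqcr11, Ndufb9 and Atp5k peak in S1004 and S1009, Atp5b and Sdha in S1007 to S1009, and Ndufs5 and Cox6a2 are lowest in S1009.

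As scores, the 5 complexes ran alike in most libraries. Over all 78 members the score was -0.15, -0.39, -0.27, 0.41, 0.15, 0.11, -0.007, -0.023 and 0.35 in S1001 to S1009, a range of 0.81. Complex I had -0.18, -0.45, -0.32, 0.45, 0.18, 0.14, -0.044, -0.009 and 0.41, and complex III had -0.24, -0.45, -0.32, 0.36, 0.14, 0.12, -0.002, -0.026 and 0.42. Their ranges, 0.89 and 0.88, were the widest of the 5. Complex IV ranged over 0.73 and complex V over 0.75, with S1004 highest and S1002 lowest in both. Complex II had -0.28, -0.30, -0.24, 0.15, 0.024, 0.079, 0.13, 0.14 and 0.11, so that S1007, S1008 and S1009 stood close to S1004. Without S1002 and S1003 the range over all members was 0.57.

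**Figure D4:**
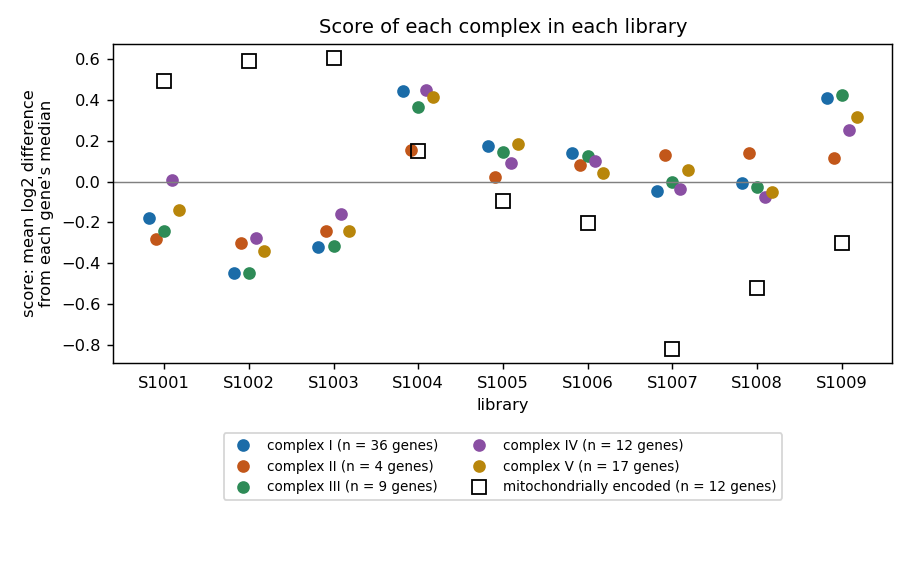
Score of each nuclear complex (filled circles) and of the 12 mitochondrially encoded subunits above 1 CPM (open squares) in each library; the vertical axis is the mean over genes of log2(CPM + 1) minus the gene's median. Circles of complexes I, III, IV and V are highest in S1004 and S1009, all 5 are lowest in S1002, while squares are highest in S1001 to S1003 and lowest in S1007.

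The deviations were also set against transcript length. The length implied by the deposited count and FPKM had a median of 1.54 kb over the members and 3.99 kb over all genes. Across the 78 members, Spearman's rho between length and the deviation from the median was -0.29 in S1004, -0.25 in S1001 and -0.19 in S1005, but 0.38 in S1007 and 0.28 in S1008. Over all genes it lay between -0.24 in S1004 and 0.17 in S1002, and was 0.055 in S1007 and 0.021 in S1008. Genes of a library share its preparation and depth and are not independent replicates, so no p is given. Of the 39 shorter members 7 passed 2-fold (17.9%), and of the 39 longer members 1 did (2.56%), namely Ndufb7, against 26.4% of all genes. The shorter members scored -0.12, -0.42, -0.29, 0.47, 0.16, 0.13, -0.075, -0.065 and 0.31 and the longer members -0.19, -0.36, -0.26, 0.36, 0.15, 0.085, 0.06, 0.019 and 0.39 in S1001 to S1009. Both sets were highest in S1004 and S1009 and lowest in S1002. The part of length in the differences between members was not tested.

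The subunits encoded in mitochondrial DNA ran in another order. A 2-fold spread was counted in 9 of the 12 mitochondrial genes that reached 1 CPM, of 13 in all (75.0%). It was counted in 8 of the 78 nuclear members (10.3%) and in 26.4% of all genes. The score of the 12 in S1001 to S1009 was 0.49, 0.59, 0.60, 0.15, -0.096, -0.20, -0.82, -0.52 and -0.30. S1001, S1002 and S1003, the low libraries of the nuclear members, were the high ones here, and S1007 was lowest. mt-Co1, the catalytic subunit of complex IV, had 2310, 2282, 2441, 1858, 1425, 1412, 806, 807 and 931 CPM. mt-Cytb, the cytochrome b of complex III, had 3812, 3961, 4073, 2562, 2499, 2137, 1466, 1985 and 2756 CPM. mt-Nd4 of complex I had 1378, 1420, 1458, 1024, 919, 778, 413, 553 and 738 CPM. mt-Co2, with the largest spread of the list, 1.73, had only 27.9, 28.1, 30.9, 18.9, 14.3, 11.3, 7.80, 9.02 and 7.77 CPM, and mt-Nd4l did not reach a mean of 1 CPM. Nuclear copies of mitochondrial DNA make these values uncertain in the same way as pseudogenes do.

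The score of the nuclear members minus that of the mitochondrially encoded subunits was -0.65, -0.98, -0.88, 0.26, 0.25, 0.31, 0.81, 0.50 and 0.65 in S1001 to S1009, a range of 1.79. Taken complex by complex, this difference ranged over 1.83 for complex I, 1.88 for complex III, 1.93 for complex IV and 1.33 for complex V. The mitochondrial side of it rested on 6, 1, 3 and 2 genes. In complex V 1 of these was mt-Atp8, at only 1.03 to 2.61 CPM. The difference was negative in S1001, S1002 and S1003 for all 4 complexes, and positive in S1004 to S1007 and S1009 for all 4. In counts, the 86 nuclear members made up 1.98, 1.73, 1.85, 2.92, 2.60, 2.43, 2.27, 2.29 and 2.87 percent of a library. The 13 mitochondrially encoded genes made up 1.21, 1.22, 1.28, 0.85, 0.81, 0.69, 0.41, 0.53 and 0.65 percent. The ratio of the first to the second was 1.64, 1.42, 1.45, 3.44, 3.21, 3.54, 5.56, 4.30 and 4.41. It was lowest in the 3 libraries with the highest microglial markers and highest in S1007 to S1009, where those markers summed to 31.5 to 177.5 CPM, and the part of these cells in the ratio was not tested.

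**Figure D5:**
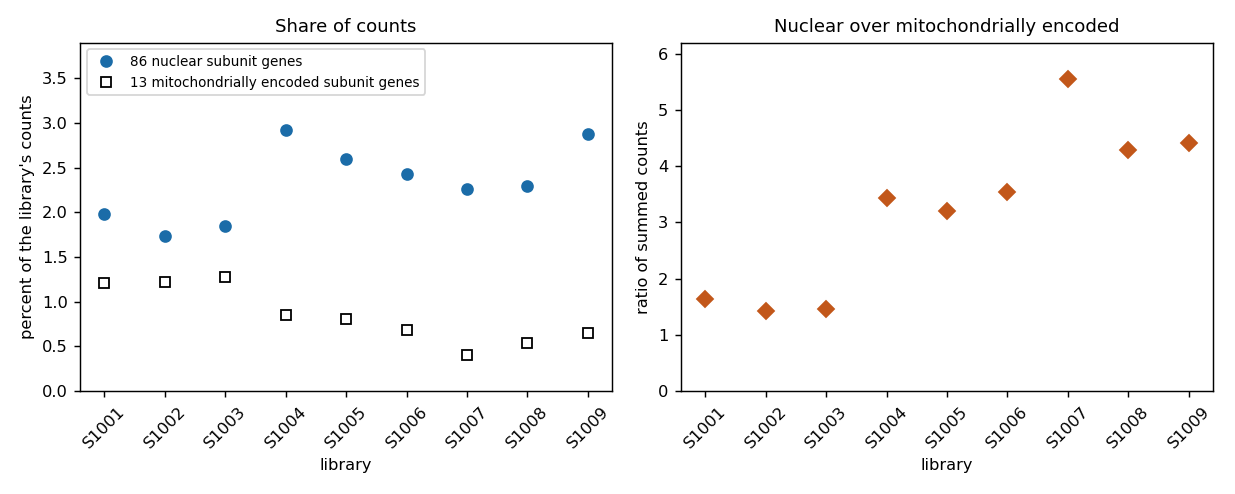
Left, percent of each library's counts from the 86 nuclear members (filled circles) and from the 13 mitochondrially encoded subunit genes (open squares); right, the ratio of these sums. The ratio is 1.42 to 1.64 in S1001 to S1003, 3.21 to 3.54 in S1004 to S1006 and 4.30 to 5.56 in S1007 to S1009.

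Other genes that serve the same organelle were read beside the members. Of 78 mitochondrial ribosome genes, which translate the mitochondrially encoded subunits, 3 passed 2-fold (3.85%, all genes 26.4%), with a median spread of 0.57. Their score was -0.21, -0.33, -0.28, 0.27, 0.024, 0.09, 0.054, -0.017 and 0.29 in S1001 to S1009, with S1009 and S1004 highest and S1002 lowest, as for the nuclear members. Mrpl14 had the largest spread of that list, 1.12. The citrate cycle enzymes ranged less, with a median spread of 0.44 and a score range of 0.32. Past 2-fold was 1 of 16 (6.25%, all genes 26.4%). The one was Suclg2, the GTP-forming subunit of succinate-CoA ligase, at 16.1, 15.9, 13.9, 3.74, 3.31, 5.01, 0.13, 0.67 and 1.60 CPM, which was highest in S1001 to S1003. The list of carriers and cytochrome c, among them the ATP/ADP exchangers and the outer membrane channels, had a median spread of 0.45. Past 2-fold were 0 of 10 (all genes 26.4%) and past 1.5-fold 2 (20.0%, all genes 58.7%).

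The subunits of complexes I to V had median spreads of 0.79, 0.50, 0.70, 0.69 and 0.63, and the assembly factors of the same complexes 0.60, 0.37, 0.75, 0.59 and 0.62. Past 2-fold were 1 of 15 for complex I (Timmdc1, spread 1.07), 0 of 4 for complex II, 1 of 6 for complex III (Ttc19, 1.29), 3 of 20 for complex IV and 1 of 5 for complex V (Fmc1, 1.02). In complex IV the 3 were Taco1, Cmc2 and Cox11. Over all genes the share past 2-fold was 26.4%. The complex I assembly factors scored -0.23, -0.24, -0.26, 0.12, -0.065, 0.15, 0.21, 0.07 and 0.20 in S1001 to S1009, with S1007 and S1009 highest, where the complex I subunits were highest in S1004. Of the 12 regulators of mitochondrial gene expression, 1 passed 2-fold (8.33%, all genes 26.4%), the nuclear receptor Esrra. Esrra had 11.6, 8.99, 10.2, 4.68, 7.24, 3.27, 23.7, 13.5 and 10.2 CPM (spread 1.35). Nrf1, whose motif is shown in the promoters above, had 17.7, 16.9, 15.4, 17.2, 19.5, 11.99, 35.1, 24.4 and 19.4 CPM. Ppargc1a, the coactivator of mitochondrial biogenesis, had 31.4, 33.5, 29.4, 24.4, 32.1, 35.5, 34.7, 33.3 and 30.5 CPM. Esrra and Nrf1 were highest in S1007, a library in which the members stood near their median, and Ppargc1a had a spread of only 0.23. Tfam, which packages mitochondrial DNA and takes part in its transcription, had the smallest spread of the list.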

How the data were processed

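RNA of sorted hippocampal neurons was sequenced in 9 libraries. For 51912 Ensembl genes, each library has raw counts and FPKM values (counts relative to gene length and library total), both made by the authors, per the file headers. Build mm10, HTSeq 0.6.1, HISAT2 2.0.1, Trimmomatic 0.30 and bcl2fastq 2.17.1.14 are listed in the submitters' processing notes. The sources used here do not give their roles, the strand setting, the treatment of multiply matching reads or the annotation release. Without a stated strand setting, a gene and an overlapping gene on the other strand cannot be told apart.

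No label ties a library to a dose: 0 of 9 libraries have a group, replicates 1 to 9 are names for S1001 to S1009, and no differential test or mean with SD was made. Symbols, gene types and coordinates came from GENCODE M21, which held 51719 (99.63%) of the identifiers. TMM factors (edgeR 4.0.16, R 4.3.3) brought the counts to CPM, used as log2(CPM + 1), with genes kept at a mean of at least 1 CPM. Spread was the second highest minus the second lowest library, with thresholds of 2-fold and 1.5-fold. FPKM served for levels between genes. Promoters came from RefSeq (GRCm38.p6), by symbol. Python 3.11.15, numpy 2.4.6, pandas 2.3.3, scipy 1.17.1 and matplotlib 3.10.9 were used, and the calculations were tested on simulated data.

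Members and lists were chosen with earlier results of these data known. Genes are named by rule: by complex, the 3 of highest mean FPKM, the 3 of largest and the 1 of smallest spread, all of complex II, all isoform families and all genes under 1 CPM. Others (core subunits, genes past 2-fold, low members, Atp5s) were named after their values were seen, as were the roles and the length split. The values of 1 member are not reported here, and the figures of single members leave it out. Alternatives were library totals without TMM, DESeq2 1.42.0 size factors, totals without mitochondrially encoded genes, a pseudocount of 0.5 or 5 CPM, a minimum of 10 CPM or none, the full range, the median as score, and leaving out each library.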

Additional observations from a re-analysis of the deposited data

How the results depend on the processing

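Under 304 alternative calculations of the main results, 274 stayed within 1.5 times of the value reported, and 30 did not. No paired analysis was possible because no library has a group. The count of members past 2-fold was 30 with the full range in place of the spread, where 52.6% of all genes pass, 2 with S1002 and S1003 left out together (19.6% of all genes) and 1 among the longer members only. Leaving out each library in turn, with scaling factors estimated again, gave 1 to 15, where 21.6% to 24.8% of all genes passed. The count past 1.5-fold was 23 with S1002 and S1003 left out (29.5%, against 45.2% of all genes), and 35 to 56 with 1 library left out, where 49.7% to 55.5% of all genes passed. The members' share was below that of all genes without S1004 and without S1009, and above it without each of the other libraries. Leaving out that pair and splitting by length were chosen after seeing the data. With no minimum level, 4 members lay above their median in S1002 and 5 in S1003, and with a minimum of 10 CPM 1 and 1 did. With 1 library left out, the counts above the median were 5 to 20 in S1001, 2 to 5 in S1003, 25 to 46 in S1007 and 18 to 37 in S1008. With 8 libraries 4 can lie above the median by construction. S1002 had the lowest score over all members in 19 of 21 settings, and the other 2 left S1002 out. S1004 had the highest in 19 and S1009 in the other 2, which were without S1004 and with the longer members only. The full range in place of the spread cannot change a score, and another pseudocount cannot change a count above the median. Those pseudocount alternatives are nevertheless among the 274. Leaving out a library that is neither highest nor lowest in a score changes the score's range only through rescaling. Such alternatives are also part of the 304. Rescaling moved the median of all genes by at most 0.076 on the log2 scale. Of 525 alternatives for the spread of 35 single members, 501 stayed within 1.5 times. Depth limits the isoforms under 1 CPM and Cox6a2.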
